A study of Mus musculus with 12 samples.

Results

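The baseline described here is the RNA of a mouse embryonic stem cell line, CCE, after transduction with a lentivirus that carries a control short hairpin RNA. Its members are the 3 control libraries, named replicates 1 to 3, of 12 libraries in the series; the other libraries carry a hairpin against the long noncoding RNA TUNA and were not used. The cells had been grown in medium with fetal serum and LIF, the cytokine that holds mouse stem cells undifferentiated, and carried the vector pLKO.1-puro. They were kept in puromycin from a day after infection and lysed for total RNA on day 2. All 3 libraries share the virus, the hairpin and the drug, so nothing here is a measure of untouched cells. The labels do not say whether the replicates came from separate cultures, so the spread between them may be technical. Every value is the level of a gene symbol, here a row of the table, in normalized counts, and no contrast with another group was made.

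Embryonic stem cells come from the inner cell mass of the blastocyst and can renew themselves or form every tissue of the body. Their identity rests on a circuit of transcription factors led by Oct4 (gene Pou5f1), Sox2 and Nanog, which bind many of the same enhancers, often at a joint site for Oct4 and Sox2. With LIF and serum, mouse lines stay in a naive state, in which STAT3 and factors such as Klf4, Klf5, Esrrb and Tfcp2l1 support that circuit. FGF4 made by the cells themselves drives ERK signalling and prepares them to leave it. Such cells divide fast, have a short G1 phase, depend on glycolysis and express the microRNAs of the Mir290 cluster.

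The table held 37477 rows. A value of 0 stands for 1 normalized count or less, so that a row at 0 is listed at 0 and not shown to be silent. In all 3 libraries 10842 rows (28.9%) were listed above 0 and 23808 rows (63.5%) were at 0; the other 2827 rows were above 0 in 1 or 2 libraries. The steps between low values gave the worth of a read as 0.863, 0.920 and 1.10 normalized counts in replicates 1, 2 and 3. A single read was therefore listed at 0 in replicates 1 and 2 but above 0 in replicate 3, which listed 12763 rows above 0 against 11925 and 11973. Of the 871 rows above 0 in replicate 3 alone, 599 lay under 2 reads. The recovered depth was 5429327, 4526403 and 4401883 reads, of which 1328842, 1174924 and 1146063 lay outside the 3 most abundant rows. Across the 3279 rows averaging 50 or more, the log2 values of library pairs correlated at 0.952 to 0.973, a description across genes, which are not independent.

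The defining markers of the labelled cell type were present. Pou5f1 was at 731, 672 and 808 normalized counts in replicates 1, 2 and 3. Sox2 was at 544, 566 and 544, and Nanog at 429.6, 465 and 551. Zfp42, a marker of undifferentiated cells, was at 539, 492 and 546. None of the 39 members of the core and naive pluripotency lists was at 0 in all 3 libraries, against 42.0% of the 20930 protein-coding rows. The markers of other cells that the culture could hold were low or at 0, with the exceptions given below.

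The promoter sequences of a few of these genes show how the most abundant stem cell factors differ in the DNA before their start. Each is the 250 bases upstream of the transcription start in RefSeq, build GRCm38.p6, written 5′ to 3′ on the gene's own strand. Nanog, chr6:122707239-122707488, plus strand, is shown with matches to an Oct type and a Sox type motif in capitals:
Nanog: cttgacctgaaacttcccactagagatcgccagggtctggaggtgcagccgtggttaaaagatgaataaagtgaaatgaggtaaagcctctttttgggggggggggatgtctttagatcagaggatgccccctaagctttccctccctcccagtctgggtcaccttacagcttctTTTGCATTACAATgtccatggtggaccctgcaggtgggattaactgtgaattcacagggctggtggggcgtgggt
The capitals in Nanog are a match to ATGCAAA, the first 7 bases of the octamer bound by Oct4 and its relatives, which overlaps with a match to ATTGTNATG, a Sox type site; both read in this sense on the opposite strand. Sox2, chr3:34649745-34649994, plus strand, and Alb, chr5:90460620-90460869, plus strand, are shown with every CG in capitals:
Sox2: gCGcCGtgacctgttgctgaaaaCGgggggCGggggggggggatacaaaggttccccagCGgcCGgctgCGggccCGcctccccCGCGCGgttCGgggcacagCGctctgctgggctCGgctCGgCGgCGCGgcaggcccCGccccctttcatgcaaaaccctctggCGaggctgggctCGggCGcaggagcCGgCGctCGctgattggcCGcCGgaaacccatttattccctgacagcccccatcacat
Alb: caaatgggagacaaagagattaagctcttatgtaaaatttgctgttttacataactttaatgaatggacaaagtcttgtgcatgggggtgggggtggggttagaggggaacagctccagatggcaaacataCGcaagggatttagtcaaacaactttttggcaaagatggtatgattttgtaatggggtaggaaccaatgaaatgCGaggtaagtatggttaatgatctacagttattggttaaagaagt
Sox2 held 27 CG pairs and Alb, the serum albumin gene of the liver, which was listed at 0 in all 3 libraries, held 2. Nanog held 3. The motif ATGCAAA, searched on both strands, was also present in the Sox2 window and in that of Zfp42, so that 3 of 26 core and naive members with a promoter sequence held it, against 4.06% of the 27025 promoters searched. The motif ATTGTNATG was in 1 of the 26 and in 0.858% of all. A match is a string of letters and shows no binding.

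By count, 3 rows held most of each library. Rnu3a, the U3 small nucleolar RNA that guides processing of the ribosomal RNA precursor, was at 1783649, 1712414 and 1917241 normalized counts. Tex14, a testis gene whose annotated span contains U3 genes (Rnu3b1 to Rnu3b4) and a U1 gene, was at 857157, 889972 and 1019408. LOC100503663, which matched no gene in the annotation used, was at 897343, 480108 and 653941. Together these rows took 75.5%, 74.0% and 74.0% of the counts of replicates 1, 2 and 3. All shares below leave them out.

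The next row, Trappc6b, codes for a subunit of a vesicle tethering complex and was at 156142, 90260 and 176989. It alone held 13.6%, 8.35% and 14.0% of the remaining counts. No small RNA gene lies within it in the annotation used here, which may differ from the one the counts were made with. The source of its reads was not tested. Rn7sk, the 7SK RNA that holds the elongation factor P-TEFb inactive, followed at 24056, 39460 and 54192. Snord118, the U8 small nucleolar RNA, was at 22506, 34193 and 49919. In both, replicate 3 was highest, at more than 2 times replicate 1, which was lowest. Snora75 and Snora74a, guides of pseudouridine formation, averaged 19099 and 17406. The spliceosomal RNAs Rnu2 and Rnu12, the U2 and U12 RNAs of the major and minor spliceosomes, averaged 13586 and 11677. Igk, the immunoglobulin kappa locus as a whole, averaged 12685; the source of its reads was not tested.

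Eef1a1, the translation elongation factor that brings aminoacyl-tRNA to the ribosome, was at 12486, 11477 and 12342; an annotated microRNA gene lies inside it. Hsp90aa1, the inducible cytosolic HSP90 chaperone, was at 13977, 9549 and 8459, and highest in replicate 1. Kif2c, a microtubule depolymerase of mitosis, was at 5876, 6982 and 11294. Gm1661, whose current symbol is Armh1, was at 5259.8, 7369 and 10235. Kif2c and Gm1661 were thus lowest in replicate 1 and highest in replicate 3, and the source of their reads was not tested. The rest of the 20 highest rows were LOC100504142 (9442) and NEWGENE49 (7114), which matched nothing, and the pseudogenes Gm15459 (9176), Gm5844 (6983) and Eif4a-ps4 (6610). Of these 20 rows, 7 were annotated as small RNAs, 2 as coding genes with a small RNA gene inside, 4 as other coding genes, 3 as pseudogenes, 1 as an immune receptor locus and 3 as nothing.

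A short head and a long tail followed. The mean was 1000 normalized counts or more in 103 rows, 100 to 1000 in 1655, 10 to 100 in 6036, and above 0 but under 10 in 5875. Outside the 3 dominant rows, the next 100 rows held 45.7% ± 4.07 of the counts (SD, n = 3), and the next 1000 held 71.3% ± 2.34. Replicate 3 stood highest, with 50.3% in those 100 rows against 44.3% and 42.6%.

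**Figure D1:**
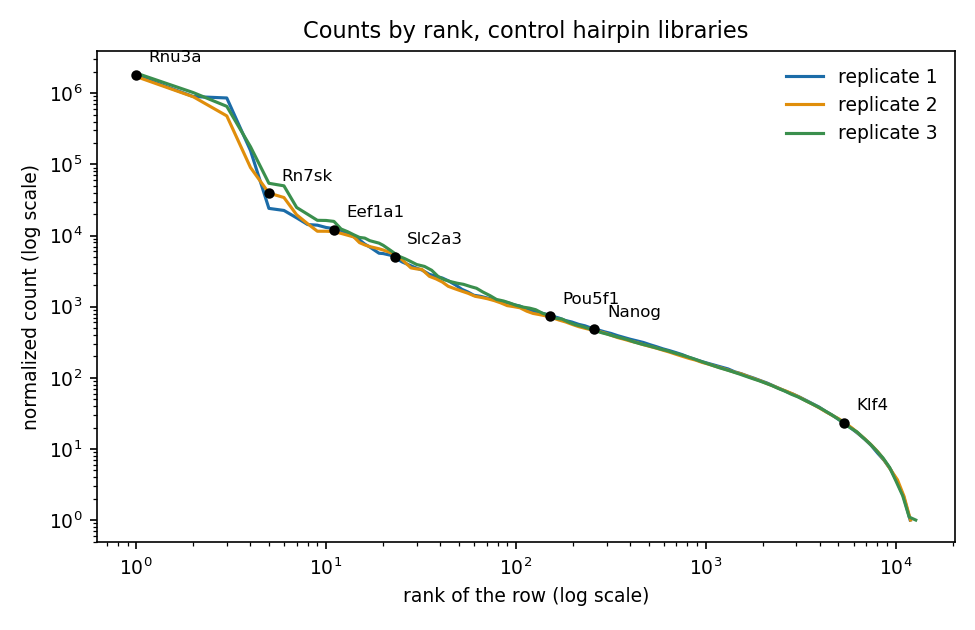
Normalized count of each row against its rank in each of the 3 control libraries, both axes on a log scale; black points are the means of named rows. The libraries part among the first rows, where Rn7sk ranged from 24056 to 54192, and run together from about Pou5f1 (mean 737) downward.

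Protein-coding rows without a small RNA gene inside made up 58.4% ± 2.79 of the counts outside the 3 rows, and those with one inside 13.1% ± 0.493. Annotated small RNAs made up 10.1%, 13.7% and 16.4% in replicates 1, 2 and 3, lowest in replicate 1 and highest in replicate 3. Pseudogenes held 9.17% ± 0.915 and long noncoding RNAs 1.79% ± 0.198. The pseudogene share is set in part by how reads that fit several copies were assigned, a rule the labels do not state. Rows of genes with near-identical copies are uncertain for the same reason. Gapdh, the glycolytic enzyme often used as a reference, was at 45.6, 60.8 and 81.3 normalized counts.

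The share of coding rows with an annotated small RNA gene inside was 5.75% among rows at 0 and 11.3% among rows under 10. It was 12.9% from 10 to 100, 18.7% from 100 to 1000 and 34.4% (22 of 64) at 1000 or more. The median transcript was 2168 bases among coding rows at 0, 3266 from 10 to 100, 3863 from 100 to 1000 and 3534 at 1000 or more, so the classes also differed in length. What part of a host's count came from its small RNA was not tested.

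Levels of different genes can be compared only per length, here per kilobase of the longest basic transcript in the annotation. Leaving out small RNAs and rows with a small RNA gene inside, Trappc6b led at 112454 per kilobase. Mtrnr2l, a row named for its likeness to a mitochondrial ribosomal RNA gene, followed at 10368. The next rows were the pseudogenes Gm13836 (6286), Gm6204 (5453), Eif4a-ps4 (5427), Gm13654 (4887), Gm15459 (4727) and Gm5805 (4349). Gm1661, Gm2412, Hsp90aa1, Gm5844, Gm8566, Kif2c and Gm13456 completed the first 15, down to 2822 per kilobase.

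Among coding rows alone, the ribosomal protein Rps14 reached 2707 per kilobase and Rps6 1562. The histones Hist2h2bb (2676), Hist1h4d (1439) and Hist1h1a (1318) stood between and beside them. Slc2a3, the neuronal-type glucose transporter GLUT3, reached 1266, and Pkm2, the row of pyruvate kinase, 1237. Npm1, a nucleolar histone chaperone, reached 1109, Actb, cytoplasmic actin, 883, and Hsp90ab1, the constitutive HSP90, 879. These rows code for proteins of translation, chromatin, glucose use, the cytoskeleton and folding.

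The core pluripotency list of 19 genes had 18 members averaging 10 or more and 13 averaging 100 or more, with a median of 161 normalized counts; the median over all rows above 0 was 14.2. Over the core and naive lists together 36 of 39 averaged 10 or more and 22 averaged 100 or more, against 32.7% and 7.12% of all protein-coding rows. Their median of 127 exceeded 90.3% of the rows above 0 by count and 82.3% per kilobase. The lists were built from genes known to be expressed in such cells, so that these counts describe the lists and test nothing.

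Per kilobase Pou5f1 led the core list at 541 ± 49.8 (SD, n = 3), above every other member in every library. Zfp42 (286 ± 16.04) and Sox2 (268 ± 6.07) followed with ranges that overlapped, and both lay above Nanog (218 ± 28.2). Nanog in turn overlapped with Dppa5a, an RNA-binding protein of early embryos, at 206 ± 33.7. Tdgf1, the Nodal co-receptor also known as Cripto, was at 152 ± 24.3. Next came Dppa4 (109 ± 12.8), a nuclear partner of Dppa2, and L1td1 (99.1 ± 3.69), an RNA-binding protein derived from a LINE element. The growth factors Gdf3 (79.9 ± 8.34) and Fgf4 (71.5 ± 7.74) overlapped as well. In all, 11 of the 18 neighbouring pairs in this order had overlapping ranges.

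The lower part of the core list held Lin28a, which blocks let-7 processing, at 42.4 ± 2.97 per kilobase. Eras, a constitutively active Ras of stem cells, was at 30.7 ± 4.08, and Trim71, a target of let-7, at 23.2 ± 2.83. Fbxo15, an F-box protein, was at 17.4 ± 7.08, and Dppa2 at 12.7 ± 2.999. Sall4, a zinc finger partner of Oct4, reached only 8.98 ± 1.56, Utf1, a chromatin factor, 7.502 ± 2.95, and Lin28b 6.86 ± 0.739; these last neighbours overlapped. Utf1 was the core member with the lowest count, at 7.65, 13.3 and 6.62 normalized counts.

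**Figure D2:**
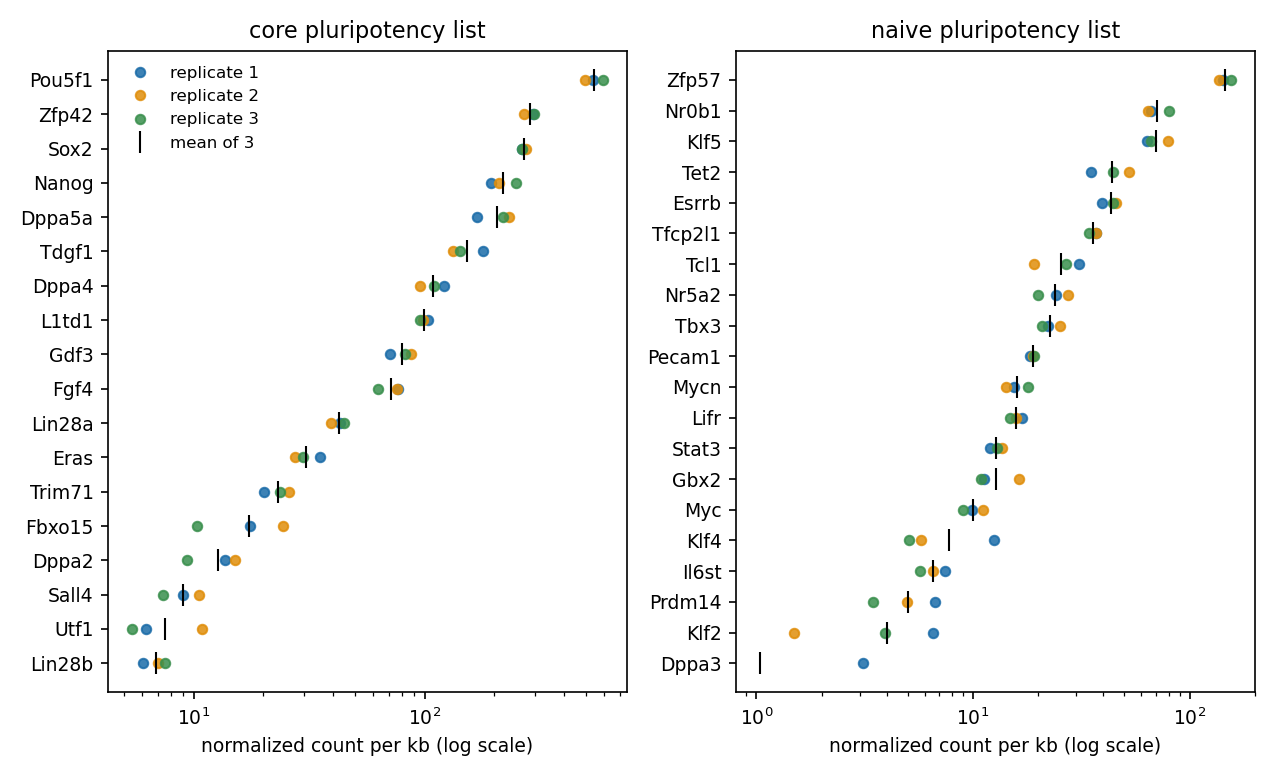
Normalized count per kilobase of transcript (log scale) of 18 core (left) and all 20 naive (right) pluripotency genes in the 3 control libraries, with the mean as a black bar; a library at 0 has no point. Pou5f1 stands alone at the top at 541, most neighbours overlap, and Klf2, Klf4 and Fbxo15 spread most widely among the members above 0 in every library.

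In the naive list 18 of 20 members averaged 10 or more. Zfp57, the zinc finger that protects imprints, was at 372, 355 and 404 normalized counts and led per kilobase (145 ± 9.698). Nr0b1 (Dax1), a nuclear receptor that binds Oct4, was at 119.9, 117 and 146, and Klf5 at 214, 267 and 222. Tet2, an oxidase of methylated cytosine, was at 321, 482 and 407, lowest in replicate 1. Esrrb, an orphan nuclear receptor, was at 170, 197 and 190.5, and Tfcp2l1, a LIF target, at 342, 341 and 317. These 6 lay between 36.0 and 145 per kilobase.

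Tbx3, Nr5a2, Tcl1, Pecam1, Mycn, Lifr, Stat3, Gbx2 and Myc lay between 10 and 25.6 per kilobase. Tbx3 and Nr5a2, transcription factors that sustain Nanog and Oct4, averaged 114 ± 11.5 and 113 ± 18.2 normalized counts. Tcl1, a coactivator of AKT, averaged 35.7 ± 8.36, Pecam1, an adhesion molecule of the inner cell mass, 64.8 ± 1.65, and Gbx2, a STAT3 target, 27.3 ± 6.43. Myc and Mycn, the drivers of growth, averaged 23.4 ± 2.53 and 42.6 ± 5.15.

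Klf4 and Klf2 were low and uneven. Klf4 was at 37.9, 17.4 and 15.3 normalized counts, so that replicate 1 stood above the other replicates. Klf2 was at 12.1, 2.76 and 7.27. Prdm14, a repressor of FGF signalling and of de novo methylation, was at 17.1, 12.7 and 8.82. Dppa3 (Stella), a maternal factor that varies from cell to cell in serum cultures, was at 2.59, 0 and 0, above 0 in replicate 1 alone.

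Upstream of these factors, the LIF pathway was present from receptor to target. The receptor subunits Lifr and Il6st (gp130) averaged 153 ± 10.3 and 56.9 ± 7.36 normalized counts. Jak1 averaged 116 ± 28.3 and Stat3 77.4 ± 5.04, while Jak2 averaged 5.06 ± 2.79 and Jak3 1.16 ± 1.22. The feedback inhibitor Socs3, a STAT3 target, was at 114, 94.7 and 106, and its relative Socs1 was listed at 0 in all 3 libraries. Gab1, an adaptor, averaged 98.1 ± 10.4. The ligand Lif itself was at 6.04, 6.44 and 6.62, and 11 of the 17 members averaged 10 or more. Among all protein-coding rows 32.7% did, a share to set beside the counts of this list and those that follow.

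The FGF and ERK list had 21 of 34 members averaging 10 or more. The ligand Fgf4 was at 231, 229 and 189.7 normalized counts, and Fgf2, Fgf8 and the receptor Fgfr4 were listed at 0 in all 3. The receptor Fgfr1 averaged 18.8 ± 4.61, with Fgfr2 at 5.13, 0 and 1.103 and Fgfr3 at 0, 2.76 and 1.103. The kinase Mapk3 was at 3.45, 5.52 and 9.93. The pathway's own targets and inhibitors were uneven. Among the higher ones Etv5, an ETS factor, averaged 292 ± 18.9, the phosphatase Dusp6 222 ± 13.3, and the inhibitors Spred1 and Spry2 139 ± 15.1 and 115 ± 13.6. Their relatives Etv4, Dusp4 and Spry1 averaged 18.5, 23.2 and 8.74, and Ier3 2.52. Of the immediate early genes, Egr1 was at 0 in all 3 and Fos at 0, 3.68 and 4.17. The small GTPase row Hras1 averaged 237 ± 12.8.

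In the Nodal and activin list 10 of 21 averaged 10 or more. Nodal, the ligand, was at 77.7, 52.8 and 54.6 normalized counts, and its co-receptor Tdgf1 at 346, 257 and 276. The antagonists Lefty1 and Lefty2 were at 4.81, 8.25 and 3.25 and 12.4, 8.18 and 18.7. The type I receptor Tgfbr1 averaged 64.3 ± 1.43 and Acvr2a 53.5 ± 1.48, while Acvr1c and the activin subunit Inhba were at 0. Smad2 averaged 68.6 ± 6.04, Smad3 4.36 ± 0.949, and the SKI-like corepressor Skil 171 ± 17.1. The ligand Gdf3 averaged 169.9 ± 17.7.

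In the BMP list 9 of 20 averaged 10 or more. Bmp4 was at 13.2, 14.7 and 16.5 normalized counts and the receptor Bmpr1a at 138, 116 and 133. Smad7, an inhibitory Smad, averaged 108 ± 12.7, the shared Smad4 94.1 ± 21 and Smad5 78.2 ± 5.08. The Id genes, targets of BMP that block differentiation, were low: Id1 was at 11.99, 9.804 and 29.5 and Id3 at 15.5, 24.4 and 33.1, both highest in replicate 3. Bmp7, Nog and Smad9 were at 0 in all 3.

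The Wnt list held 10 of 41 members averaging 10 or more. Ctnnb1, beta-catenin, was at 837, 803 and 849.99 normalized counts, and its kinase Csnk1a1 at 457, 347 and 339. Apc, the scaffold of its destruction complex, averaged 118 ± 23.2, and the receptors Fzd5 and Lrp6 111 ± 6.72 and 67.2 ± 8.29. Of 19 Wnt ligand rows none averaged 10 or more; the highest were Wnt5b (8.28), Wnt6 (7.56), Wnt7b (5.997) and Wnt10a (2.25). The target Axin2 was at 4.31, 2.76 and 0. Tcf7l1, the repressor of pluripotency genes in this pathway, was at 0, 1.76 and 2.21, and Lef1 was at 0.

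Cell cycle genes were well represented. The 6 MCM subunits, which load as a ring with 1 copy of each, averaged 110 to 212 normalized counts and lay within 2.06-fold of each other per kilobase, from Mcm2 (62.98 ± 4.51) down to Mcm4 (30.6 ± 3.08). Only Mcm4 stood apart from its neighbour in that order, the other 4 of 5 pairs having overlapping ranges. Cdk1, the kinase of mitosis, was at 924, 798 and 906, Cdk4 at 492, 451 and 533, and cyclin B2 (Ccnb2) at 432, 244 and 279. Ccnb1 and Ccne1, cyclins of mitosis and of S phase entry, averaged 249 ± 23.04 and 244 ± 12.2. The inhibitors were low: Cdkn1a (p21) was at 8.63, 2.76 and 3.31, Cdkn2a at 0, 1.84 and 1.103, and Cdkn1c and Cdkn2c at 0, but Cdkn1b (p27) averaged 70.8 ± 9.84.

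Other p53 genes were present while p21 was low. Trp53inp1, a p53 target of autophagy, was at 716, 677 and 673 normalized counts, and Ccng1, cyclin G1, at 522, 592 and 653. Aen, a nuclease of apoptosis, averaged 172 ± 4.95, and Mdm2, the ligase that degrades p53, 159 ± 28.9. Trp53 itself averaged 35.5 ± 6.84, and the death receptor Fas was at 0. In all 16 of 19 members averaged 10 or more.

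Glycolysis stood out by the level of a few members. Slc2a3 was at 4934, 4953 and 5156 normalized counts and Pkm at 3041, 2738 and 3247, with little spread between libraries. Hk2, hexokinase of proliferating cells, was at 1126, 1034 and 1047, and Ldha, which makes lactate, at 732, 533 and 632. Among common reference genes Eef2, of translation, averaged 954 ± 128 and Tfrc, the transferrin receptor, 622 ± 9.803. The remaining 15 glycolysis members ranged from 2.44 (Eno2, the neuronal enolase) to 472 (Slc2a1, GLUT1), and 17 of 19 averaged 10 or more.

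Protein folding and turnover genes gave a check on how even the rows of a complex are. The 8 CCT subunits, present as 1 copy each in a ring of the chaperonin, ranged from 251 (Cct3) to 1158 (Tcp1) normalized counts, and 4.31-fold per kilobase. Tcp1 and Cct6a hold small nucleolar RNA genes. Highest by count were Tcp1, Cct5 (595), Cct6a (555) and Cct8 (520.1), and the lowest per kilobase were Cct7 and Cct4, both at 109.7. The 14 core proteasome subunits spread 98.4-fold per kilobase. Psmb3 was highest at 379.8, with Psma4 (178) and Psmb1 (142) next and Psmb7 (96.1) after them, and Psma3 was lowest at 3.86; by count Psma2 (139.5) was among the 4 highest. Psma3 was at 3.74, 16.04 and 13.2 normalized counts, low in all 3 libraries. Rows of one complex can thus differ by far more than the spread between libraries, and what part copies elsewhere in the genome have in this was not tested.

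Chromatin genes were broadly present. In the Polycomb list 17 of 28 members averaged 10 or more, led by Mtf2, which recruits PRC2 to CpG islands, at 1584, 1052 and 919.9 normalized counts. Rbbp4 averaged 675 ± 57.7, Rybp 315 ± 19.5, Jarid2 311 ± 44.4 and Suz12 309.9 ± 12.3. Cbx7, the chromobox protein of stem cells, averaged 114 ± 7.203, and Phf1 was at 0. Of 15 DNA methylation genes 13 averaged 10 or more, with Tet2, Tet1 (400.5 ± 73.6), Zfp57 and Uhrf1 (182 ± 20.2), which guides Dnmt1, at the top. Among 23 remodelers Smarca5 (407 ± 60.3), Chd4 (292 ± 23.2), Chd1 (99.2 ± 8.01) and Arid1a (78.7 ± 23.5) led, and Smarca2, Smarcd3 and Actl6b, subunits of differentiated cells, were at 0 in all 3.

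In many pairs of related genes a single member carried most of the signal. These pairs were chosen after their values were seen, and the ratios, per kilobase and taken within each library, are a description. Hk2 exceeded Hk1 71.6 ± 3.27-fold, Slc2a3 exceeded Slc2a1 8.79 ± 0.681-fold, and Ccne1 exceeded Ccne2 18.4 ± 2.93-fold (SD, n = 3). Cdk4 exceeded Cdk6 238 ± 44.2-fold, and Ezh2, the PRC2 methyltransferase of dividing cells, exceeded Ezh1 17.5 ± 2.26-fold. Cbx7 exceeded Cbx2 22.1 ± 3.85-fold, Rbbp4 exceeded Rbbp7 9.73 ± 1.58-fold, and Map2k1 exceeded Map2k2 4.95 ± 0.257-fold. In none of these did the ranges of the members overlap.

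For other pairs the difference was smaller or less even. Lin28a exceeded Lin28b 6.23 ± 0.778-fold and Ldha exceeded Ldhb 3.29 ± 0.44-fold. Tet2 exceeded Tet1 1.59 ± 0.252-fold, with ranges that did not overlap, while Tet3 was at 1.7, 7.36 and 5.49 normalized counts. Klf5 exceeded Klf4 10.7 ± 4.86-fold, a ratio that ran from 5.10 to 13.9 across libraries. Dnmt3a against Dnmt3b gave 1.23 ± 0.207-fold and Smad5 against Smad1 0.928 ± 0.093-fold, both with overlapping ranges.

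Genes of the formative and primed epiblast, the states that follow the naive one, were sparse. Of 16 members 4 were at 0 in all 3 libraries (Sox3, Zic5, Lef1 and Fgf8) and 5 averaged 10 or more. Those 5 were Dnmt3a (124 ± 13.5), Dnmt3b (46.1 ± 10.6), Otx2 (27.4 ± 4.36), Sox4 (20.5 ± 5.54) and Etv4 (18.5 ± 3.58). Otx2, the factor of the transition to the epiblast, was at 26.4, 32.2 and 23.6, while Fgf5, its classic marker, was at 0, 1.84 and 1.103 and Pou3f1 at 5.18, 0 and 1.103.

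Of the 180 rows in the lineage, germ cell, feeder and blood lists, 102 (56.7%) were at 0 in all 3 libraries, 18 averaged 10 or more and 3 averaged 100 or more. Among all protein-coding rows 42.0% were at 0. In bulk RNA a few cells that express a gene strongly and many that express it weakly cannot be told apart.

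**Figure D3:**
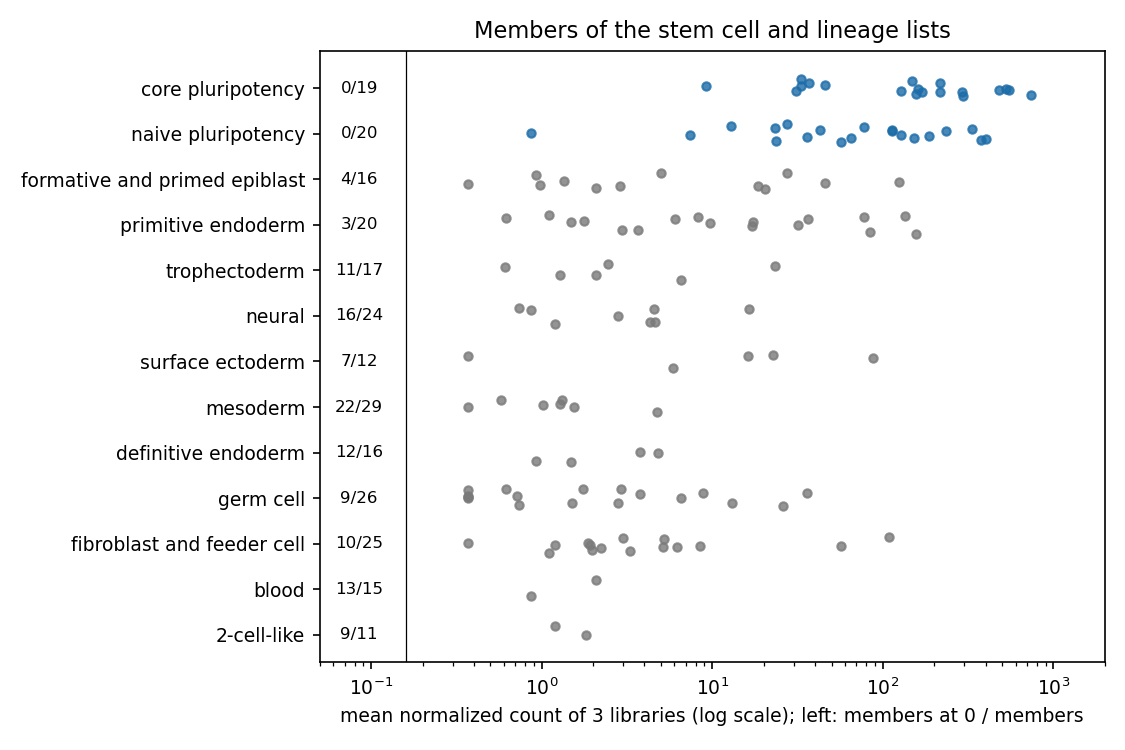
Mean normalized count (log scale) of each member of the stem cell lists (blue) and the lineage lists (grey); the left column gives how many members were at 0 in all 3 libraries, of all in the table. Both pluripotency lists have 0 at 0 and most members above 10, whereas the mesoderm, definitive endoderm, blood and 2-cell-like lists have none at 10 or more.

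The germ layer lists were nearly empty. In the neural list 16 of 24 were at 0, among them Neurog2, Olig2 and Dcx. Only Tubb3, a tubulin, averaged over 10, at 7.71, 19.3 and 22, followed by Nes (7.77, 0 and 6.16), Map2 (2.83, 4.599 and 6.18) and Sox1 (3.45, 1.84 and 7.72). In the mesoderm list 22 of 29 were at 0, including Brachyury (T), Mixl1, Mesp1 and Gsc. The highest were the VEGF receptor Kdr at 5.56, 7.38 and 1.25, Twist1 at 1.7, 1.84 and 1.103, Lmo2 at 3.93, 0 and 0 and Eomes at 0, 2.76 and 1.103. In the definitive endoderm list 12 of 16 were at 0, with Foxa2, Cxcr4, Afp and Alb among them, and Hhex was highest at 4.31, 3.57 and 6.62, followed by Foxa3 (3.76), Sox17 (1.48) and Prox1 (0.92). The surface ectoderm list had 7 of 12 at 0, but Cdh1, E-cadherin, was at 77.3, 91.9 and 92.6, Epcam at 15.5, 28.5 and 24.3 and Cldn4 at 20.7, 9.197 and 18.7; these junction genes are also known from stem cells. Grhl3 averaged 5.92, and the keratins Krt5, Krt14 and Krt15 were at 0.

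The primitive endoderm list departed from this, with only 3 of 20 at 0 and 8 averaging 10 or more. Those 8 were mostly matrix and scavenger genes: Lrp2 (megalin) was at 175, 155 and 141, Sparc at 136, 116 and 154, and the laminin subunits Lama1 at 70.7, 93.6 and 87.1 and Lamc1 at 61.3, 91.9 and 77.99. Serpinh1 averaged 36.6 ± 0.282, Lamb1 31.7 ± 6.46, Krt18 17.2 ± 5.92 and Col4a1 17.2 ± 1.52. The transcription factors that define these cells were low or at 0. Gata4 and Sox7 were at 0 in all 3, Gata6 was at 6.04, 2.76 and 2.21, Sox17 at 2.59, 1.84 and 0, and Pdgfra and Dab2 at 3.45, 3.68 and 10.98 and 0, 0 and 3.31.

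In the trophectoderm list 11 of 17 were at 0, including Cdx2, Elf5, Gata3, Tpbpa and Hand1. Tead4 averaged 23.3 ± 4.74, and Tfap2c, Bmp8b and Fgfr2 averaged 6.55, 2.46 and 2.08. The 2-cell-like list, genes of the zygotic genome activation state, had 9 of 11 at 0; only Zscan4c (3.305, 1.07 and 1.11) and Zscan4d (1.73, 1.84 and 0) were above 0, and reads of these near-identical genes may not be told apart.

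Of 26 germ cell genes 8 were above 0 in all 3 libraries and 3 averaged 10 or more, with a list median of 0.490. Kit, a receptor of primordial germ cells, was at 32.8, 38.9 and 35.96, Piwil2 at 27.6, 24.6 and 25.4, Ddx4 (Vasa) at 11.2, 14.7 and 12.99 and Dazl at 6.04, 12.9 and 7.72. The oocyte genes Zp1, Zp2, Zp3, Gdf9, Bmp15 and Figla were at 0, as were Nanos2, Nanos3 and Spo11, which makes 9 of 26.

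Feeder fibroblasts are a possible companion of stem cell lines, and their markers were checked as a group. Of 25 members 10 (40.0%) were at 0 in all 3 libraries, close to the 42.0% of all coding rows, among them the fibrillar collagens Col1a1, Col1a2, Col3a1 and Col5a2, and Dcn, Lum, Postn and Lox. Only Fn1, fibronectin, and Vim, vimentin, averaged over 10, at 97.96, 148 and 78.8 and 54.1, 58.5 and 57.8. Ctgf and Tagln averaged 8.45 and 6.24. The blood list had 13 of 15 at 0, including Ptprc (CD45) and the globin rows, and Cd34 and Itgam averaged 2.09 and 0.863.

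Interferon genes were checked because a lentivirus had been used. Of 19 members 11 (57.9%) were at 0 in all 3, against 42.0% of all protein-coding rows. Among those 11 were Ifnb1, Isg15, Ifit1, Ifit3, Mx1, Irf7 and Rsad2. In all, 4 members averaged 10 or more, where 32.7% of all protein-coding rows did. The RNA sensor Ddx58 (RIG-I) was at 91.95, 88.7 and 80.7, the receptor Ifnar1 averaged 19.5 ± 1.79, the kinase Eif2ak2 (PKR) 15.6 ± 3.28 and Stat2 10.4 ± 1.11.

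In several gene families a larger share of rows was listed at 0 than the 63.5% of all rows in the table. Of 1417 olfactory receptor rows 1407 were at 0 in all 3 libraries, and 2 averaged 10 or more, Olfr986 (24.9, 25.6 and 14.1) and Olfr814 (23.99, 13.2 and 18.6); Olfr57 and Olfr856-ps1 averaged 7.21 and 0.981. Of 603 vomeronasal rows 590 were at 0, but the pseudogenes Vmn2r-ps19 and Vmn2r-ps14 were at 463, 622 and 607 and 349, 395 and 371, with Vmn2r-ps20 and Vmn1r32 averaging 71.8 and 21.5. All 55 keratin-associated rows were at 0, as were 64 of 65 defensins, 39 of 40 chemokines, 110 of 123 cytochromes P450, 59 of 67 serpins, 35 of 39 interleukins and 41 of 43 taste receptors. The exceptions were low: Defb30 averaged 0.368, Ccl25 7.96, Cyp3a13 9.59, Il17d 1.15 and Tas1r1 2.77, while Serpini1 averaged 78.7 and Serpinb6a 31.2. Of the Rhox genes, a homeobox cluster on the X chromosome, 29 of 32 were at 0.

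Developmental transcription factor families ranged more widely. Of 40 Hox rows 34 were at 0, and Hoxb9 (7.37), Hoxa10 (3.25), Hoxd13 (1.47) and Hoxc13 (1.23) were the highest. Of 20 Sox rows, taken by name, 7 were at 0 and only Sox2, Sox4 and Sox2ot averaged over 10. Sox2ot is a long noncoding RNA and no Sox factor. Of 17 Pou rows only Pou5f1 and Pou2f1 (43.1) did, and of 16 Tbx rows only Tbx3 and Tbx20, a heart factor, at 46.6, 51.5 and 55.1. None of the Gata, Pax, Lhx and Nkx rows did, the highest being Nkx6-3 (7.69) and Gata6 (3.67). The Klf family had 2 of 17 at 0 and 11 averaging over 10; Klf5 led, before Klf9 (145), Klf3 (107) and Klf8 (38.9), by count. Of 45 Fox rows 24 were at 0 and 9 averaged over 10, led by Foxo3 (102), Foxn2 (72.7), Foxp1 (69.03) and Foxj3 (37.9). Of 376 Zfp zinc finger rows 212 did, led by Zfp949 (2954), which holds a small RNA gene, Zfp518a (1136), Zfp281 (708) and Zfp42.

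Surface and matrix families were mixed. Of 32 integrin rows 7 averaged over 10, and Itga6, the laminin receptor subunit, was highest at 275, 262 and 222, before Itgb1 (52.3), Itgav (31.97) and Itgb7 (25.7). Of 43 collagen rows 25 were at 0 and Col18a1 led at 63.6, 62.6 and 64.5. Of 51 keratin rows 42 were at 0, and Krt18 and Krt42 averaged 17.2 and 15.2, with Krt8 at 8.22. Of 24 claudins only Cldn12 (58.2) and Cldn4 averaged over 10, and of 60 clustered protocadherins only Pcdhgc3 (10.3). Of 351 solute carriers 92 averaged over 10; after Slc2a3 came the phosphate carrier Slc25a3 (663, 981 and 1205), Slc25a36 (646) and Slc2a1.

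In families of basic machinery most rows were above 0. Of 83 cytosolic ribosomal protein rows 75 averaged 10 or more, led by Rps14 (2125 ± 286), Rpsa (1567 ± 302), Rplp2 (1443 ± 592) and Rps6 (1371 ± 70.4). So did 61 of 81 mitochondrial ribosomal proteins, 25 of 37 complex I rows, 13 of 19 ATP synthase rows, 35 of 45 proteasome rows, 34 of 38 DEAD box helicases, 54 of 66 initiation factor rows and all 17 aminoacyl-tRNA synthetases. The initiation helicase Eif4a1 averaged 4886 ± 1117 and Eif4a2 2739.6 ± 905, Psmd4 of the proteasome 782 ± 176, Ddx3x 525 ± 57.8, Mrps25 299 ± 103 and the asparaginyl-tRNA synthetase Nars 123 ± 7.23. The ATP synthase subunit Atp5b was at 2249, 1792 and 1815, and the complex I subunit Ndufs1 at 185, 202 and 185. Of 21 hnRNP rows 19 averaged over 10, led by Hnrnpu (2671, 2003 and 1907), and of 13 SR splicing factors 12 did, led by Srsf1 (2848, 2216 and 2135). Of 89 histone rows 69 averaged 10 or more and 46 averaged 100 or more. Hist1h4d (1234, 1541 and 2138) and Hist1h1d (1180.4, 1496 and 1644) led. The mRNAs of the replication-dependent histones among these rows end without a poly(A) tail. The molecule label names total RNA, while the design text speaks of mRNA profiles.

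The noncoding RNAs of RNase P and RNase MRP, Rpph1 and Rmrp, were at 5401, 6252 and 7924 and 4284, 5238 and 7275 normalized counts, both highest in replicate 3. Malat1, of nuclear speckles, was at 2898, 3507 and 2641 normalized counts. The row that matches Tunar, the gene of TUNA, was listed at 0 in all 3 libraries. Kcnq1ot1, a paternal imprinted transcript, was at 494, 697 and 446, and Peg10, a paternally expressed gene of retroviral origin, at 638, 821 and 529. Ube3a averaged 234 ± 28.5 and Snrpn 82.1 ± 22.02, whereas H19 was at 3.45, 3.68 and 6.62, Meg3 at 0, 0 and 1.04 and Dlk1 at 0. Snhg12 and Snhg3, hosts of nucleolar RNAs, averaged 1695 ± 728 and 1616 ± 559. Of 29 imprinted rows 12 averaged 10 or more and 9 were at 0.

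The Y-linked rows Ddx3y, Eif2s3y and Uty were at 195, 153 and 139, 74.4, 72.8 and 69.4 and 41.9, 63.9 and 40.9 normalized counts, and 5 of 9 Y rows were at 0. Xist, the RNA that silences an X chromosome in female cells, was at 87.8, 88.9 and 63.4 and its antisense partner Tsix at 2.97, 12.3 and 9.998; they overlap, the counting is not stated to use strand, and reads of one cannot be told from reads of the other. Of 880 coding rows on the X chromosome 24.8% averaged 10 or more, against 33.2% of 19933 autosomal ones. Single autosomes ran from 23.3% (chromosome 7) to 39.0%, so that the X chromosome lay within their range. The median of those rows was 32.9 on the X chromosome and 38.7 on autosomes, with 31.1 on chromosome 17 and 32.5 on chromosome 7.

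Of 418 microRNA rows 391 were at 0 and 11 averaged 10 or more. Reads on a hairpin row may come from the primary transcript, so that these values are no measure of the mature microRNA. Some members of the stem cell cluster on chromosome 7 are shown with the seed, bases 2 to 8 from the 5′ end, in capitals. The members shown differ there in the last base at most, and the rest of the cluster was not compared. Beside them stands a microRNA of another cluster with the same seed as most of those shown. Sequences are mature 3p arms from RefSeq, build GRCm38.p6:
miR-290a-3p: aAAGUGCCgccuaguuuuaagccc
miR-291a-3p: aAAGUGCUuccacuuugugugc
miR-294-3p: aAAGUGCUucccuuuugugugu
miR-295-3p: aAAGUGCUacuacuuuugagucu
miR-302b-3p: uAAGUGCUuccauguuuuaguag
The seed is AAGUGCC in miR-290a-3p and AAGUGCU in the others. The last sequence, miR-302b-3p, is from a cluster on chromosome 3. The row Mir290 was at 154, 133 and 177 normalized counts, while Mir291a, Mir294, Mir295 and Mir302b were listed at 0 in all 3.

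The highest microRNA row was Mir743b on the X chromosome, at 2208, 2309 and 2548. Mir17, the first member of a cluster that promotes proliferation, was at 61.3, 92.7 and 65.1, and its host transcript Mir17hg at 79.9, 51.4 and 60.2. Mirlet7a-1, of the let-7 family that Lin28a holds back, was at 42.7, 33.9 and 36.6, and Mirlet7d at 24.5, 17.8 and 26.1. The mature 5p arms of Mir17, Mirlet7a-1 and Mirlet7d are shown with the seed in capitals. The let-7 5p arms share GAGGUAG, and the 5p arm of miR-17 holds AAGUGC from base 3:
miR-17-5p: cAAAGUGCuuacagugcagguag
let-7a-5p: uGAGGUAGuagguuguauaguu
let-7d-5p: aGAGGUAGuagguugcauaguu
The other rows averaging 10 or more were Mir682 (129), Mir688 (27.4), Mir130a (13.4), Mir703 (12.7), Mir674 (10.1) and Mir191 (10.02). Of the 15 genes of the microRNA pathway 14 averaged 10 or more, with Trim71, Tnrc6a (176 ± 23.4), Lin28a and Dicer1 (147 ± 14.99) highest, and Ago4 was at 1.73, 0 and 0.

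Promoter composition differed between abundance classes. The ratio of observed to expected CG pairs in the 250 bases upstream had a median of 0.220 in the 6637 coding rows at 0 with a promoter sequence. It was 0.659 in the class under 10, 0.769 from 10 to 100, 0.835 from 100 to 1000 and 0.871 at 1000 or more (46 rows). The motif TATAAA, searched on the gene's strand in the last 50 upstream bases, was in 6.27% of promoters of rows at 0, in 1.91% of those under 10, in 0.862% from 10 to 100, in 1.34% from 100 to 1000, in none of the 46 at 1000 or more and in 3.37% of all 16221. The motif GGCGGG, on either strand, was in 20.9% of promoters of rows at 0 and in 56.3% of those under 10. It was in 60.9% from 10 to 100, 67.5% from 100 to 1000, 71.7% at 1000 or more and 43.8% of all. Olfactory receptors, nearly all at 0, had a median ratio of 0.1003 and are a part of the first class.

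**Figure D4:**
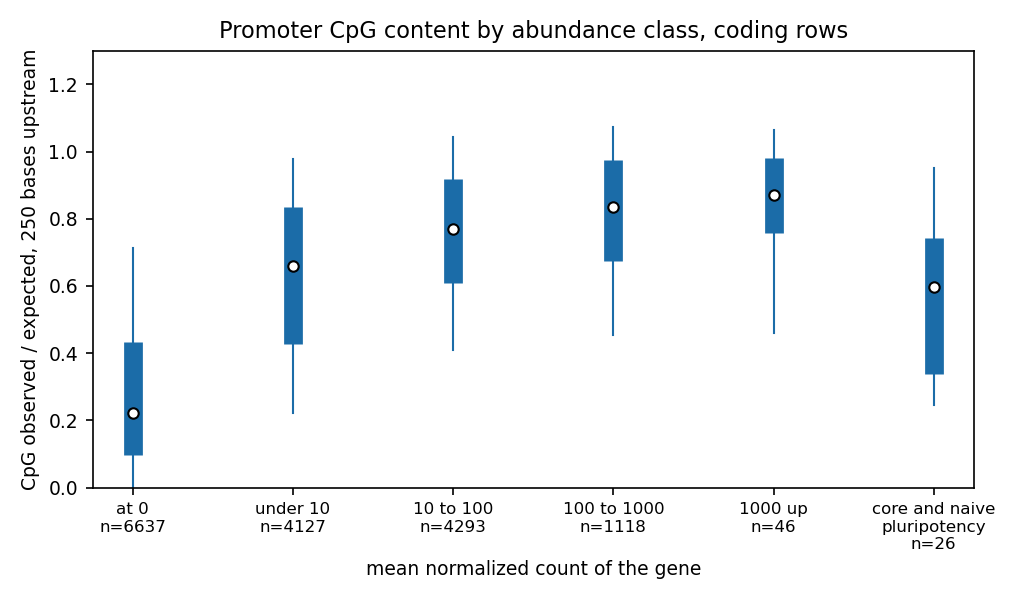
Ratio of observed to expected CG pairs in the 250 bases before the start, by mean normalized count of the gene; points are medians, thick bars the middle 50% and thin lines the middle 80% of promoters. Class medians run from 0.220 at 0 to 0.871 in the highest class, and the 26 core and naive pluripotency genes have a median of 0.597.

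The 26 pluripotency genes with a promoter sequence had a median ratio of 0.597, against 0.835 in the class from 100 to 1000. Their means ran from 7.37 (Klf2) to 737 (Pou5f1), so that they are not all of that class. Nr5a2 (0.172), Nanog (0.182), Zfp57 (0.230), Esrrb (0.264) and Pou5f1 (0.334) were lowest among those averaging 100 or more. At the other end lay Sox2 (0.833), Lifr (1.01) and Tet2 (1.19). The difference rests on 26 genes chosen by name and was not tested.

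The spread between libraries was set beside the spread that counting alone would give, taken from the recovered reads; as those are not all whole, it is an approximation. Over the 3279 rows averaging 50 or more, the median coefficient of variation was 13.2%, against a median expected (Poisson) coefficient of 9.45% from the recovered reads. The former is observed over 3 libraries and the latter is an expected value, so they are not the same measure. In the class from 200 to 500 these values were 11.3% and 5.82%, and at 1000 or more 19.2% and 2.37%.

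A 2-fold or larger spread between the highest and the lowest library was found in 87 of these 3279 rows (2.65%). Without replicate 1 there were 14 such rows, without replicate 2 79 and without replicate 3 11, so that the count and its breakdown rest on replicates 1 and 3. Replicate 3 was highest in 49 of them, replicate 1 in 31 and replicate 2 in 7. By class, 14 of 41 small RNA rows were among them (34.1%), 17 of 484 coding rows with a small RNA gene inside (3.51%), 10 of 263 pseudogenes (3.80%) and 40 of 2379 other coding rows (1.68%). The row with the widest spread was Rps12, a ribosomal protein that hosts small nucleolar RNAs, at 74.1, 508 and 1263, a 17.04-fold range.

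Next came the pseudogenes Gm13315 (160.5, 13.8 and 104, 11.6-fold) and 6820431F20Rik (110.5, 156 and 33.2, 4.695-fold). Ctsa, a lysosomal carboxypeptidase, was at 114, 42.7 and 28.1, highest in replicate 1. H3f3a, which codes for histone H3.3, was at 38.5, 34.2 and 124, and Eapp, which binds E2F factors, at 58.7, 86.5 and 203, both highest in replicate 3. Rpl11 was at 23.7, 78.9 and 71.1, and Tomm7, of the mitochondrial import pore, at 142, 46.9 and 83.6. Stxbp5, Gm3246, Hes7, a clock gene of somites, and Nemf were highest in replicate 3 and lowest in replicate 1, with ranges of 2.998-, 2.85-, 2.83- and 2.74-fold. Mfap1b, Gm7459 and Utp18 ran the other way, with ranges of 2.81-, 2.8- and 2.56-fold. All of these 15 rows but Rps12, Gm3246 and Nemf averaged under 200.

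The most even rows were Pcmtd1 (109, 108 and 109), 2410006H16Rik (56.6, 56.4 and 56.9), Bnip3l (108, 107 and 108), Zdhhc6 (102, 101 and 101) and Hspa9-ps1 (135, 136 and 136), with a ratio of highest to lowest library from 1.008 to 1.014. No member of the core and naive lists averaging 50 or more (25 rows) spread 2-fold, against 2.65% of all rows at that level. With 25 rows this cannot be told from that share. Members under 50 are not in this count, and Klf2 and Klf4 among them ran from 2.76 to 12.1 and from 15.3 to 37.9. The median coefficient of variation of the 25 rows was 10.4%. It was 7.04% for 12 Polycomb rows, 9.78% for 13 glycolysis rows and 10.9% for the MCM subunits.

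Some groups of rows shared a direction between libraries. The median log2 difference from the mean of the 3 libraries was -0.36, -0.09 and 0.43 for the 41 small RNA rows in replicates 1, 2 and 3, and replicate 3 was highest in 38 of them. For 54 replication-dependent histone rows it was -0.30, 0.01 and 0.27, with replicate 1 lowest in 51. For all 3279 rows it was 0.01, -0.01 and -0.02, and replicate 3 was highest in 1040 and replicate 1 lowest in 1115. The 58 cytosolic ribosomal protein rows stood at -0.08, -0.10 and 0.20, and the 25 pluripotency rows at -0.02, 0.01 and 0.02.

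With libraries rescaled so that the counts outside the 3 dominant rows were equal, the median of all rows moved to 0.03, 0.09 and -0.14. On that scale the small RNA rows stood at -0.34, 0.01 and 0.30 and the histone rows at -0.28, 0.12 and 0.15, so that replicate 3 was highest in 35 of 41 and in 28 of 54, and replicate 1 lowest in 28 and 51. The ribosomal protein rows stood at -0.07, 0.00 and 0.08. Coding rows without a small RNA gene inside also differed by length on that scale, the 475 shortest (up to 2094 bases) at 0.02, 0.04 and -0.08 and the 476 longest (from 5808 bases) at 0.03, 0.15 and -0.20. The part that RNA recovery, library preparation or the cells had in these shifts was not tested.

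**Figure D5:**
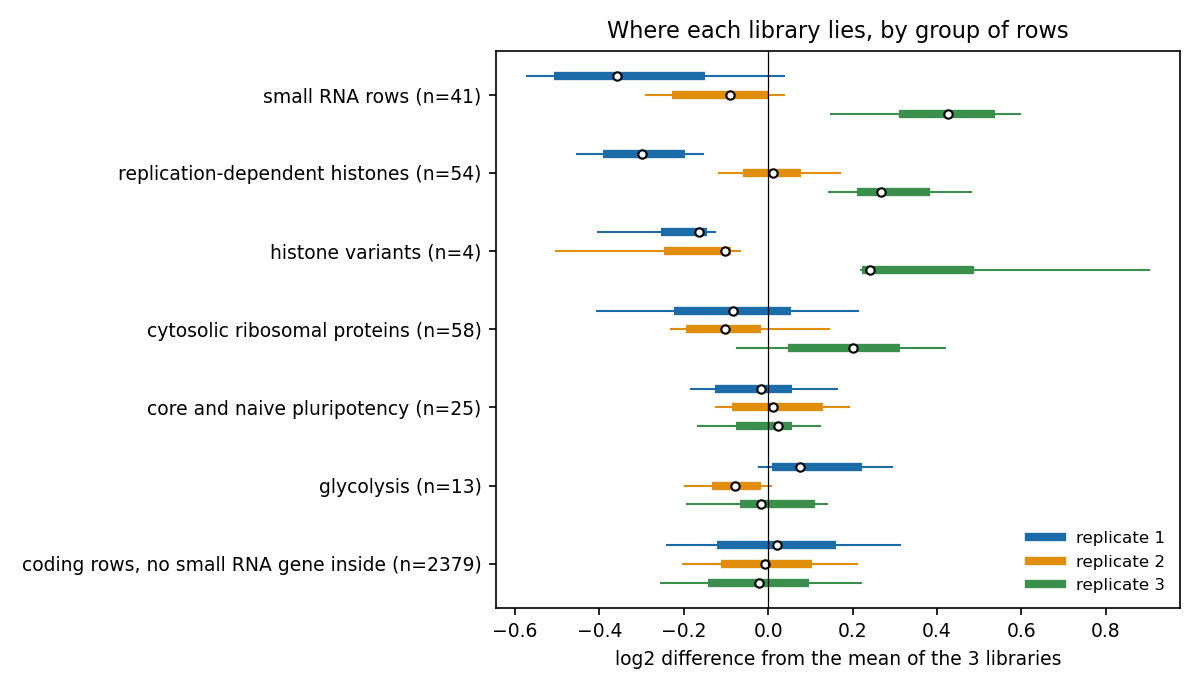
Log2 difference of each control library from the mean of the 3, for groups of rows averaging 50 or more; points are medians, thick bars the middle 50% and thin lines the middle 80% of rows. Small RNA and histone rows are low in replicate 1 and high in replicate 3, at medians of -0.36 to 0.43 and -0.30 to 0.27, whereas the pluripotency rows lie near 0 in all 3.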

How the data were processed

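RNA sequencing was used. The molecule label names total RNA, while the design text speaks of mRNA profiles, so how the RNA was selected is not settled. The authors deposited a table of log2 normalized counts per gene symbol, in which 0 stands for 1 normalized count or less. BWA, DESeq and the build mm9 are named per the submitters' processing notes, with no version or role; the counting rule, strand use and annotation are not given in the sources used here. The 3 control columns were raised from log2 and values at 0 were set to 0, so that means of low rows are lower bounds. The worth of a read was taken from the steps between low values; only 48.8%, 46.7% and 54.9% of low values (under 20 reads) fell on a whole read to 0.02, so the counts look weighted and no count-based test was run; the counting error given beside spreads is the Poisson value of the recovered reads, an approximation. The depth in reads sets the counting error alone, and other spread between libraries is not covered by it.

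Symbols were matched to GENCODE M21 or, failing that, to RefSeq symbols and synonyms (30278 of 37477 rows, 96.9% of those averaging 10 or more). Small RNA genes inside and the longest basic transcript came from GENCODE M21, and class from either. Of the rows averaging 10 or more, 7490 had a transcript length. RefSeq tables on GRCm38.p6 gave the sequences, and no mm9 coordinate was used. Values are means ± SD over 3 libraries. With 1 group there is no test. Scripts were tested on simulated data. The members and lists were chosen with earlier results of these data known.

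Named were the 20 rows of highest mean, the 15 highest per kilobase without small RNAs and hosts, core pluripotency genes and naive ones averaging 10 or more, the highest members (up to 4) of other lists and families, lineage genes averaging 10 or more, and the 15 widest and 5 narrowest spreads among rows averaging 50 or more. Others, such as genes given as examples at 0, gene pairs and low naive members, were chosen after their values were seen. Python 3.11.15, numpy 2.4.6, pandas 2.3.3 and matplotlib 3.10.9 were used. Alternatives were other limits on level, rescaling, a pseudocount of 5, other detection limits and leaving out each library. A few genes of the lists are counted but not reported here by name.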

Additional observations from a re-analysis of the deposited data

How the results depend on the processing

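No paired analysis was possible because only 1 group was described. The share of counts in the next 100 rows was 45.7%, and 29.6% without small RNA rows and their hosts. The median coefficient of variation was 13.2%, 11.9% among rows averaging 200 or more, 17.6% among those averaging 10 or more and 15.4% after rescaling outside the 3 dominant rows; leaving out a library gave 9.13% to 12.6%. Rows with a 2-fold spread numbered 87, but 26 at 200 or more, 937 at 10 or more and 51 without small RNA, host and histone rows. Leaving out a library gave 11 to 79 such rows: 14 without replicate 1, 79 without replicate 2 and 11 without replicate 3, so that replicates 1 and 3 carry most of this count, and fewer samples alone narrow a range. The pluripotency median exceeded 90.3% of rows by count and 82.3% per kilobase, and 89.0% to 90.4% by count without a library. Within the limits set for them lay rows averaging 10 or more (6958 to 7822) and the share of the 3 dominant rows (74.0% to 74.8%). So did rows above 0 in all 3 libraries (10842), at 10036 to 11404 with other detection limits or a library left out. Rows above 0 in at least 1 library, a wider count, numbered 13669. Lineage genes at 0 (102) numbered 106 to 115 with another detection limit or a library left out. Without the 2 extraembryonic lists, a smaller set, 89 were at 0. Also within the limits were the 2-fold rows under rescaling (108) and a pseudocount of 5 (62). A limit of 2 reads, lists without extraembryonic cells and the count without histones were chosen after seeing the data. Depth outside the dominant rows limits statements on rows under about 10 normalized counts.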
